A study of Drosophila melanogaster with 5 samples.

Results

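The genes described here are Drosophila melanogaster genes known only by a CG number, the identifier of the fly genome annotation, whose signal was high in control salivary glands and low in glands labelled as expressing the transcription factor Fork head. A probe set was selected when the array annotation gave it 1 symbol of the form CG plus digits, its intensity was above 400 on both control arrays and its intensity was under 150 on all 3 arrays labelled Fkh. CG11912, CG11911, CG33127 and CG43755 were left out by name. The selection holds 32 probe sets for 31 genes, out of 18952 probe sets on the array and 5667 with a CG symbol, which stand for 5209 genes. Because these intensities chose the genes, their differences between the groups are given as a description, with no test.

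The array measured total RNA of dissected salivary glands. The 3 arrays of the Fkh group came from animals with P{hs-Fkh111}, a transgene that places fork head (fkh) under a heat shock promoter, which acts in any tissue and not in the gland alone. The 2 control arrays came from w1118 animals, a white-eyed laboratory strain, which the titles write as w1118(3). Both groups were kept at 25 °C, were heat shocked at 37 °C for 30 min when 9.5 h had passed since puparium formation, and were dissected at 14 h, so the controls carry the heat shock too and lack the transgene. The labels give neither the number of animals behind an array nor their sex, and the design text describes the arrays within a group as biological replicates.

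The larval salivary gland makes the glue that fixes the pupal case to its support, and is then destroyed in the prepupa and early pupa in answer to the steroid hormone ecdysone. Fork head is a forkhead-domain transcription factor that is needed to form the gland in the embryo and to express glue genes in the larva, and its disappearance in the prepupa precedes the death of the gland. Genes that keep a bare CG number include enzymes, transporters and kinases recognised from their sequence, and others for which no family is given below.

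The fkh probe set read 41.5, 47.0 and 58.3 on the Fkh arrays and 129.6 and 120.3 on the w1118 arrays. All 3 Fkh arrays lay below both controls, against the direction of the label (log2 difference -1.13, SE 0.17, limma adjusted p = 0.0026). Whether this probe set lies in the part of fkh that the transgene carries is not known here, and the groups are therefore called the arrays labelled Fkh and w1118, with every direction below resting on the labels. The table holds no detection calls, so the selected genes are described as dim on the arrays labelled Fkh, not as off.

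Across the series the arrays had median intensities from 44.6 to 49.5, and with so few arrays the precision is limited. For a single value, the smallest two-sided p that exact permutation of 3 against 2 arrays allows is 0.2. This takes the two-sided p as 2 times the one-sided p. Markers of several other tissues differed between the groups. The summed signal of 6 fat body markers was 11600.2 to 13034 on the arrays labelled Fkh and 21680 to 22832 on w1118, that of 10 haemocyte markers 1619 to 2228 and 3753 to 3818, that of 5 tracheal markers 3998 to 4382 and 6743 to 7737, and that of 4 neuronal markers 206 to 241 and 442 to 443. Of the tested genes of these lists 3 of 6, 4 of 7, 4 of 5 and 2 of 4 fell past the limma threshold, and 0 rose. For these and the marker counts below, the shares over all 8299 genes tested were 19.3% that fell and 21.5% that rose. The haemocyte markers He, Hml, PPO1 and eater read under 50 on every array, and no marker was at 0 on all arrays. Muscle (5 markers), midgut (6) and imaginal ring and duct (4) had summed signals of at most 272 on any array. Of the 2 muscle genes tested 0 were called, of the 3 midgut genes LManI rose, and the 1 ring and duct gene, eyg, fell. The summed signal of 12 salivary gland markers was 51526 to 52706 on the arrays labelled Fkh and 23664 to 26607 on w1118. Of its 11 tested genes 6 rose (Sgs1, Sgs3, Sgs4, Sgs5, sage and sens) and 2, Sgs7 and fkh, fell. This list holds fkh itself and glue genes, which need Fork head, so its sum is not a measure of gland tissue alone. The actin 3′ probe set over the 5′ one, a ratio that tracks how intact and completely labelled the RNA was, stood at 3.37 to 4.94 on the arrays labelled Fkh and 2.47 and 2.54 on w1118. The part of other tissues and of RNA quality in the values below was not tested. Single markers differed by more than these sums: NimC4 of haemocytes read 192, 226 and 249.6 on the arrays labelled Fkh and 953 and 872 on w1118, and Obp44a of the fat body list 1806, 2030 and 1275 against 7013 and 5954. In RNA of whole glands, fewer cells of a type and less RNA per cell cannot be told apart.

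The intensity limits cut through a continuous range of values. Among the 669 CG probe sets above 400 on both w1118 arrays, the highest of the 3 Fkh intensities was under 50 for 11, from 50 to 100 for 9 and from 100 to 150 for 13. A further 20 had their highest Fkh intensity between 150 and 200, 27 between 200 and 300, and 397 above 800. Just inside the lower limit were CG17224, CG5966 and CG14968, whose highest Fkh intensities were 148.7, 147.6 and 143.5, and just outside it CG31974, CG10184 and a second probe set of CG31635 at 150.7, 154.1 and 154.5. Just inside the upper limit were CG12075, CG9568 and CG32369, whose lower w1118 intensities were 423, 426 and 465, and just outside it CG30062, CG13449 and CG31223 at 398, 386 and 385. Of the 669 probe sets, 33 met both limits (4.93%), and CG33127 is the 1 left out by name. All 32 selected probe sets passed the filter on dim probe sets used for the array-wide test and were called lower by it, as 18.7% of all 11261 probe sets tested were; since the selection used this contrast, nothing is read from that count.

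**Figure D1:**
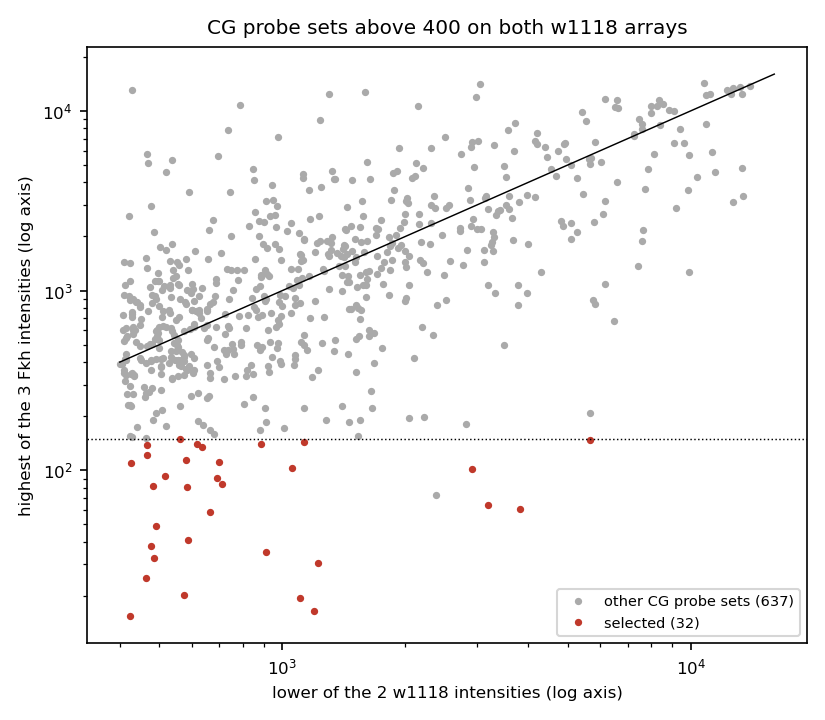
The lower of the 2 w1118 intensities (x axis, log scale) against the highest of the 3 intensities on arrays labelled Fkh (y axis, log scale) for 669 CG probe sets above 400 on both w1118 arrays. The dotted line marks 150 and the solid line equal values. The 32 selected probe sets (red) lie below the dotted line without a gap to the others, and the grey point below it is CG33127, left out by name.

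The ratio of the w1118 mean to the Fkh mean ran from 3.62 to 96.3 over the 32 probe sets, with a median of 14.4. It was above 30 for 10 probe sets, between 10 and 30 for 13 and below 10 for 9. On the log2(intensity + 16) scale used for the array-wide fit, the median difference was -3.52, beside a median of -0.01 over all 11261 probe sets tested. Intensities of different probe sets do not measure RNA on a common scale, so the comparisons below are made within a probe set.

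**Figure D2:**
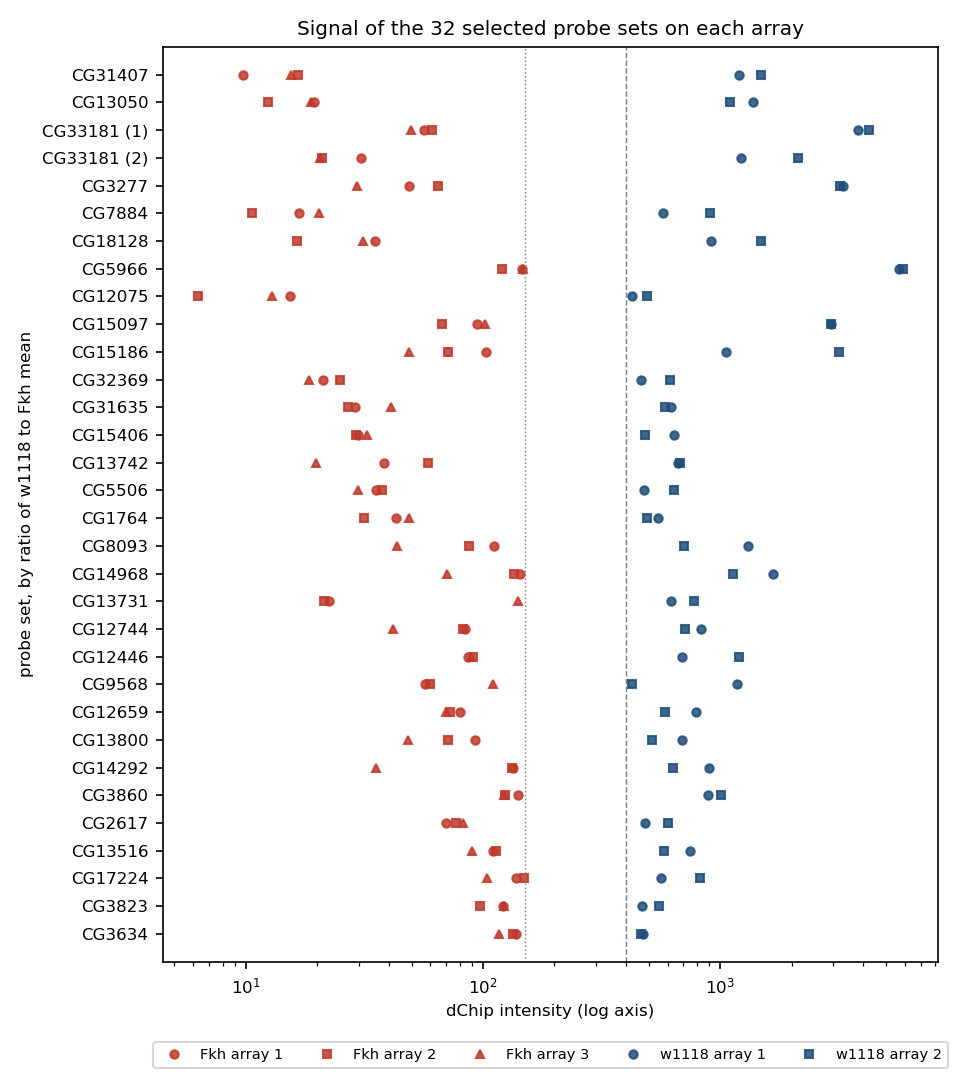
Intensity (x axis, log scale) of the 32 selected probe sets (y axis, ordered by the ratio of the w1118 to the Fkh mean) on the 3 arrays labelled Fkh (red) and the 2 w1118 arrays (blue). Lines mark the limits of 150 and 400. The distance between the groups narrows from 96.3-fold for CG31407 to 3.62-fold for CG3634, and (1) and (2) tell apart the probe sets of CG33181.

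Among the selected enzymes were the lipases CG5966 and CG8093. CG5966, a member of the pancreatic lipase family, read 146, 120.2 and 148 on the arrays labelled Fkh and 5658 and 5875 on w1118, a ratio of 41.8. Its means were 138 ± 15 (SD, n = 3) and 5767 ± 153 (SD, n = 2), and the arrays of each group lay close together. CG8093, a relative of acid lipases, read 111, 87.4 and 43.2 against 1307 and 700.4, a ratio of 12.4. Here the arrays of one group differed more, 1.87-fold between the w1118 arrays, and the limits of the selection require the groups to be apart.

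A pair of enzymes that split nucleosides was also selected. CG18128, a predicted purine nucleoside phosphorylase, read 35.2, 16.4 and 31.1 on the arrays labelled Fkh and 911 and 1486 on w1118, a ratio of 43.5. CG17224, a predicted uridine phosphorylase, read 138, 149 and 104 against 562 and 820 and had one of the smallest ratios, 5.30. Its highest Fkh intensity is the one nearest to the limit of 150, and the second w1118 array was the higher one for both genes.

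Proteins that move sugars or bind lipids formed another small group. CG15406, a predicted sugar transporter of the plasma membrane, read 29.6, 29.1 and 32.4 on the arrays labelled Fkh and 637 and 484 on w1118, a ratio of 18.4. Its Fkh arrays lay close together, with a mean of 30.4 ± 1.8 (SD, n = 3). CG3860, a member of the oxysterol-binding protein family, read 141, 124 and 123 against 886 and 1006. CG3823, a protein with the CRAL-TRIO lipid-binding fold, read 121, 97.2 and 122 against 466 and 550. The ratios of these lipid-binding proteins, 7.33 and 4.48, lay in the lower part of the range.

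A single kinase was selected. CG3277, which has the sequence of a receptor tyrosine kinase, read 48.9, 64.5 and 29.4 on the arrays labelled Fkh and 3294 and 3195 on w1118. The ratio was 68.2, and the higher w1118 array was 1.03 times the lower. CG12744, a zinc-finger protein, read 84.3, 82.0 and 41.8 against 833 and 713, a ratio of 11.1.

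For the other genes with wide differences no family is given here. CG31407 read 9.77, 16.6 and 15.5 on the arrays labelled Fkh and 1196 and 1489 on w1118, a ratio of 96.3. CG13050 read 19.5, 12.4 and 18.9 against 1376 and 1104, a ratio of 73.3. On the Fkh arrays both read below each array's median in all 3, as 11 of the 32 probe sets did, while their w1118 signals were 1104 or more. Ratios over signals this dim have no firm order: on the log2(intensity + 16) scale the differences of CG31407 and CG13050 were -5.50 and -5.25, smaller in size than those of the brighter probe set of CG33181 (-5.82) and CG3277 (-5.72).

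CG33181 was represented by 2 selected probe sets, which are not independent genes. The first read 56.4, 60.8 and 49.5 on the arrays labelled Fkh and 3815 and 4219 on w1118, and the second 30.6, 20.9 and 20.6 against 1225 and 2129. Their ratios were 72.3 and 69.8, although the second w1118 array stood 1.74 times above the first at one probe set and 1.11 times at the other.

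CG7884 read 16.7, 10.6 and 20.3 on the arrays labelled Fkh and 575 and 906 on w1118, a ratio of 46.7. CG15097 read 94.4, 67.4 and 102 against 2923 and 2917, a ratio of 33.2 with w1118 values that were almost equal. CG12446 read 86.9, 90.9 and 89.2 against 690.3 and 1203, a ratio of 10.6. In this last gene the arrays labelled Fkh were the more alike, with a mean of 89.0 ± 2.0 (SD, n = 3), and the w1118 arrays the more spread, with 947 ± 363 (SD, n = 2).

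CG14968 read 144, 136 and 70.5 on the arrays labelled Fkh and 1666 and 1132 on w1118, a ratio of 12. The third Fkh array was the lowest, as it was for 17 of the 32 probe sets. The remaining probe sets, among them those of CG5506, CG1764, CG12659, CG13800, CG2617, CG13516 and CG3634, had ratios between 3.62 (CG3634) and 39.6 (CG12075). Their groups did not overlap, which the limits of the selection require.

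For 3 of the selected genes another probe set lay outside the limits. The limits chose the selected probe set of each gene for its wide difference and not the other, so their ratios are not compared on equal terms. Why they differ was not tested. At its selected probe set CG12075 read 15.4, 6.31 and 12.9 on the arrays labelled Fkh and 423 and 491 on w1118, a ratio of 39.6, and at its other probe set 87.8, 55.6 and 43.4 against 160.4 and 131, a ratio of 2.34. CG32369 read 21.1, 25.1 and 18.5 against 465 and 613 (ratio 25.0), and elsewhere 22.6, 17.8 and 20.4 against 64.6 and 89.4 (ratio 3.79). CG31635 read 28.8, 26.9 and 41.1 against 618 and 588 (ratio 18.7), and elsewhere 154, 139 and 112 against 424 and 462 (ratio 3.29). In all 3 genes every Fkh array was below both w1118 arrays at the other probe set too. Which transcripts each probe set reads is not known here, and RefSeq lists 5, 2 and 8 transcripts for these genes.

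Replicate arrays of the controls differed at some of the selected genes. The ratio of the higher to the lower w1118 array had a median of 1.27 over the 32 probe sets and of 1.13 over the other 637 CG probe sets above 400 on w1118, given as a description. It exceeded 1.5 for 7 of the 32 and 2 for CG15186 and CG9568. CG15186 read 1053 and 3178 on w1118 and 103, 71.4 and 48.9 on the arrays labelled Fkh. Its ratio of 28.4 became 42.7 without w1118 array 1 and 14.2 without w1118 array 2. CG9568 read 1172 and 426 on w1118 and 57.0, 59.8 and 109.9 on the arrays labelled Fkh, and its ratio of 10.6 became 5.64 without w1118 array 1. Neither w1118 array was the higher one throughout, since array 2 was above array 1 for 17 of the 32.

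The third array labelled Fkh stood apart from the first and second at several genes, in both directions. It was the lowest of the 3 for 17 probe sets, the highest for 10 and between them for 5. CG14292 read 134, 133 and 35.4 on these arrays and 897 and 635 on w1118, and CG13742 read 38.3, 58.8 and 19.8 against 664 and 674. With CG8093 these were the 3 probe sets at which the third array lay below 0.5 of the mean of the first and second. CG13731 went the other way, with 22.4, 21.3 and 140.6 on the arrays labelled Fkh and 618 and 774 on w1118. Its ratio of 11.3 became 31.9 without the third Fkh array. The name of its probe set carries Affymetrix's suffix for probes that may also read other sequences.

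**Figure D3:**
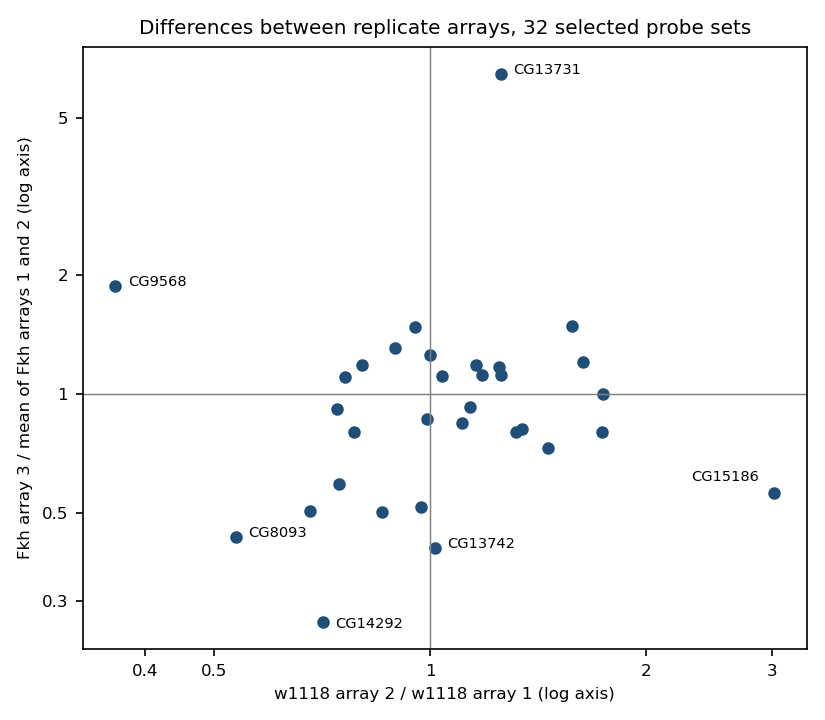
For the 32 selected probe sets, the ratio of w1118 array 2 to array 1 (x axis, log scale) against the ratio of Fkh array 3 to the mean of Fkh arrays 1 and 2 (y axis, log scale). Each point is 1 probe set and grey lines mark equal values. CG15186 and CG9568 stand out along the x axis, CG13731 at the top and CG14292, CG8093 and CG13742 at the bottom.

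The genes beside the selected ones were examined next. Their place and not their values chose them, with an exception. A neighbour that was itself selected was passed over for the next gene, as at CG3277 and CG15406, which takes some strong falls out of the neighbours. Places came from the RefSeq table of genes (assembly Release 6 plus ISO1 MT), in which 30 of the 31 genes were found, all protein-coding, and CG13800 was not matched. The nearest protein-coding gene on each side, other than a selected gene, gave 58 genes, of which 46 had a probe set that was tested (1 probe set per gene, the brightest). Of these 46, 14 fell and 9 rose in the arrays labelled Fkh (limma, Benjamini-Hochberg adjusted p under 0.05). Over all 8299 genes tested 19.3% fell and 21.5% rose, and among the neighbours 30.4% and 19.6%. The median log2 difference was -0.14 for the neighbours and -0.01 for all genes. Without w1118 array 1 the share of all genes that fell was 11.4% and 10 neighbours fell, and without w1118 array 2 it was 12% and 11 neighbours fell. The difference between these shares was not tested.

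Several neighbours that fell changed as much as the selected genes. Otu, a deubiquitinase named for ovarian tumours, overlaps CG33181 at one end and read 16.2, 4.66 and 10.9 on the arrays labelled Fkh and 618 and 673 on w1118 (log2 difference -4.66, SE 0.22, limma adjusted p = 2.0e-05). CG3909, on one side of CG31407, read 180, 139.9 and 103 against 2813 and 3220 (-4.30, SE 0.23, adjusted p = 3.3e-05 by limma). Hr38, a nuclear receptor whose span overlaps CG2617, read 13.1, 4.26 and 12.3 against 242 and 509 (-3.85, SE 0.33, adjusted p = 0.00022 by limma). In each case the groups were far apart, although the w1118 arrays of Hr38 differed and it was below the filter on dim probe sets without w1118 array 2. The other probe set of Hr38 had a smaller difference of -1.79 (SE 0.36, limma adjusted p = 0.0090), and without w1118 array 1 the gene's value was -2.43.

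On the X chromosome, CG12659 read 80.3, 72.8 and 70.2 on the arrays labelled Fkh and 791 and 586 on w1118. Its neighbour CG12081 fell from 3519 and 3494 on w1118 to 499, 432 and 343 (log2 difference -3.01, limma adjusted p = 6.2e-05). Crag, a regulator of Rab proteins and membrane traffic on the other side of it, fell by 1.18 on the same scale (limma adjusted p = 0.0036). Both neighbours also fell for CG31407 (Mical and CG3909), CG33181 (otu and Nrg), CG2617 (Cen and Hr38) and CG12446 (Cda4 and fog), which makes 5 genes. Of the 29 genes with a tested neighbour, some had a tested gene on 1 side only and could not show this. Mical, otu and Hr38 overlap the selected gene beside them. Over all 8299 genes tested 19.3% fell. How often adjacent genes both fell over all genes was not computed, so nothing is read from the count of 5. The signal fog, which drives cell shape change in the embryo, fell by 2.52 and Cda4, a chitin deacetylase, by 1.06. The calls of Nrg (an adhesion molecule), Cen and Cda4 were not stable. Nrg lost its call without Fkh array 1, 2 or 3 (limma adjusted p = 0.11, 0.088 and 0.065). Its log2 difference of -0.66 became -0.37 without w1118 array 1, where its call was lost too. Cen lost its call without w1118 array 1 (log2 difference -0.80) and Cda4 without w1118 array 2 (-0.94).

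Other selected genes stood beside genes that rose. Egl, part of the dynein complex that carries mRNA, lies after CG18128 and rose from 240.5 and 312 on w1118 to 1481, 1551 and 1115 (log2 difference 2.25, SE 0.21, limma adjusted p = 0.00032). CG30273, before CG13516, rose from 51.0 and 47.7 to 312, 277 and 288 (2.24, SE 0.15, limma adjusted p = 6.9e-05). The transporter blot beside CG13731, CG14196 beside CG7884 and Remo beside CG1764 rose by 1.54, 1.19 and 1.17. At CG13516 the neighbours went opposite ways, since RYBP on its other side fell by 0.87, a call lost without either w1118 array (limma adjusted p = 0.17 and 0.087). Leaving out any 1 array, 8 of the 14 falls and 5 of the 9 rises were tested and called in all 5 such fits. CG13102, Grip and CG15894 complete the falls, and Oatp26F, CG11808, CG7408 and HIPP1 the rises; CG13102 had a limma adjusted p of 0.048 and lost its call without 4 of the 5 arrays, with values up to 0.18.

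In 12 of the 29 cases no tested neighbour passed the threshold, beside 19.3% of all 8299 genes tested that fell and 21.5% that rose. How often this holds over all genes was not computed, so nothing is read from the count. CG3277 and CG15406 share their neighbours and are both among the 12. For some of the 12, CG12075 among them, the gene on the other side was not tested. CG15097, which had a ratio of 33.2, lies between Phb2 (a mitochondrial prohibitin, log2 difference -0.01) and CG15082 (0.26). The tested neighbour of CG12075, Moe, which links actin to the membrane, read 4147, 5160 and 4864 on the arrays labelled Fkh and 4223 and 3939 on w1118 (log2 difference 0.21, limma adjusted p = 0.36). Lim1, on its other side, was not tested. These neighbours did not pass the threshold, while at the selected probe set beside them the w1118 mean was more than 30 times the Fkh mean. At the other probe set of CG12075 it was 2.34 times the Fkh mean.

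Farther out the shares moved up and down without a trend. At places 2 to 5 on each side, a range chosen after the data were seen, 33 of 168 genes fell (19.6%) and 39 rose (23.2%). Beyond place 5, 1502 of 7988 genes fell (18.8%). Without neighbours whose span overlaps a selected gene, also chosen after the data were seen, 10 of 36 fell and 8 rose.

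**Figure D4:**
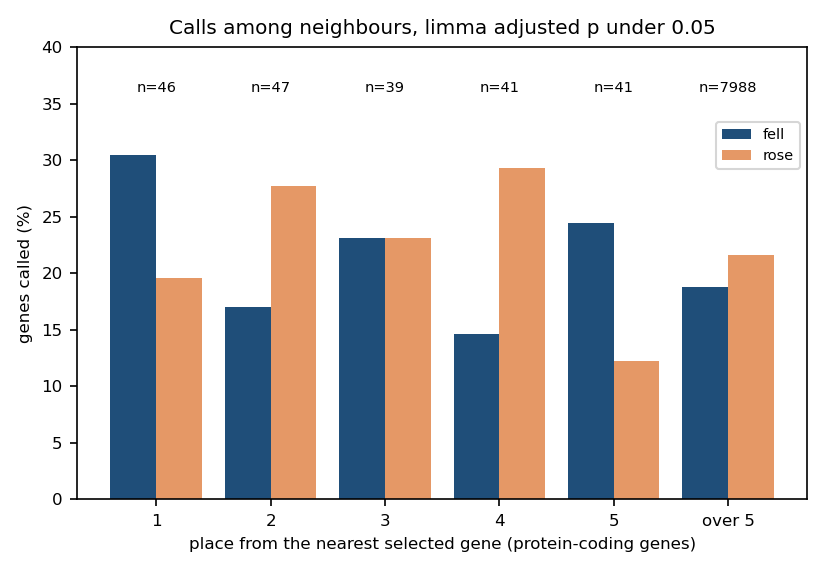
Share of tested genes that fell (blue) or rose (orange) in the arrays labelled Fkh, in percent on the y axis, by place from the nearest selected gene on the x axis. The share that fell is 30.4% at place 1 and between 14.6% and 24.4% at places 2 to 5, each from 39 to 47 genes, and 18.8% beyond them.

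Some selected genes lie inside another gene. The span of CG15406, the sugar transporter, lies within that of the kinase gene CG3277, and both were selected, with ratios of 18.4 and 68.2. CG31407 lies within Mical, which encodes an enzyme that takes actin filaments apart. Mical's brightest probe set read 2459, 2379 and 2356 on the arrays labelled Fkh and 6823 and 8668 on w1118 (log2 difference -1.67, SE 0.16, limma adjusted p = 0.00041). Its other probe set read 127, 97.6 and 51.1 against 1380 and 1070 (-3.58, SE 0.33, limma adjusted p = 0.00030), so it met the same intensity limits as the selected genes, and the probe sets of Mical differed in the size of the fall. CG18128 lies within Sesn, a stress-induced gene of the sestrin family, and within CG46429, which has no probe set used here. Sesn read 3545, 3721 and 2844 against 4163 and 4459 (-0.36, SE 0.17, limma adjusted p = 0.15). A nested gene was therefore found with a host that fell and with one that did not pass the test. The table gives neither exons nor strands, so reads of a host transcript by the probes of a nested gene were not tested.

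The selected genes were spread over the large chromosome arms. Of the 31 genes, 8 lie on X, 6 on 2L, 7 on 2R, 6 on 3L and 3 on 3R. Of 613 other CG genes above 400 on both w1118 arrays, 16.8% lie on X and 26.3% on 3R, against 25.8% and 9.68% of the selected ones. These shares are a description of few genes, without a test. RefSeq lists a single transcript for 11 of the 30 matched genes and 12 for CG15186, the gene with the widest spread between w1118 arrays.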

How the data were processed

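The authors deposited 1 intensity per probe set, on a linear scale. Per the design text of the series they used dChip and scaled every array to a common baseline array whose median intensity was 134; its version and expression model are not stated there. Per the labels' protocols, RNA came from TRIzol and RNeasy and was labelled by Affymetrix's one-cycle method. Of 18769 probe sets without the 183 controls, the platform annotation gives 1 symbol for 13647, several for 402 and none for 4720. The selection used intensities as deposited. The array-wide test used log2(intensity + 16), which understates the change of dim probe sets, for 11261 probe sets whose mean lay above the 40th percentile (5.62), with limma 3.58.1 in R 4.3.3 (3 residual and 3.63 prior degrees of freedom, two-sided, Benjamini-Hochberg). A gene was represented by its brightest probe set. The procedure was run on simulated data with the same SD for every probe set and no array effects. Measured arrays need not be that regular, so the run does not vouch for the calls here. The selected genes and all lists were chosen with earlier results of these data known. All selected genes may be named, values on every array are given for those of largest ratio or signal, with another probe set, or beside another selected gene, and, chosen after their values were seen, for some with a known family (CG17224, CG3860, CG3823, CG12744), with a wide spread between replicate arrays (CG9568, CG14292, CG13742, CG13731) and for CG12659 beside its neighbours, and neighbours are named where called. A planned description of protein and promoter sequence was not made, because no sequences were used here. Alternatives changed the constant, filter, scaling, variance model, replicate block, limits and arrays. Figures were drawn with matplotlib 3.10.9.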

Additional observations from a re-analysis of the deposited data

How the results depend on the processing

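The selection depends most on its limits: 76 probe sets met limits of 300 and 200, and 6 met limits of 800 and 75. Quantile normalization gave 38, and leaving out 1 array 32 to 43. The median log2 difference of the selected probe sets was -3.52, and -4.01 and -2.75 with added constants of 1 and 64. A larger constant compresses dim signals more by construction. It ranged from -3.69 to -3.43 with 1 array left out. The limits of the selection fix the direction of each selected probe set, whose values in the alternative fits ran from -6.51 to -1.46. With 1 array left out, the number of all probe sets that fell, 2104, ranged from 1222 (without w1118 array 1) to 2309 and was 1301 without w1118 array 2, and that of CG probe sets, 671, ranged from 377 to 751 and was 439 without w1118 array 2. With quantile normalization 2412 and 759 fell. The neighbours that fell, 14, ranged from 10 to 13 and those that rose, 9, from 6 to 9 with 1 array left out. Replicate numbers are shared by the groups, but no label ties them to a litter, batch or day, and only 2 pairs exist. With the replicate block 15 neighbours fell and 9 rose, and 2019 probe sets fell and 2350 rose. Same-numbered arrays had correlations of deviations of 0.08 and -0.11. With no detection calls, differences among dim intensities cannot be ordered.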

Other observations

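Genes with a proper name met the same intensity limits as well. Among 1719 probe sets with 1 other symbol above 400 on both w1118 arrays, 40 probe sets for 39 genes read under 150 on all 3 arrays labelled Fkh (2.33%, beside 4.93% of the CG probe sets, both as descriptions). Those with large w1118 means included Jhbp3, a juvenile hormone binding protein (2494 against 67.8), app, a palmitoyltransferase of tissue growth and polarity (2016 and 2193 on w1118 against 88.1, 0.029 and 45.1), and myd (2039 against 25.7). In the same set, cue, nemy, Sting and ldd had means of 1859, 1783, 1677 and 1611 on w1118 and 89.0, 114, 104 and 81.8 on the arrays labelled Fkh. Sting, a sensor protein of antiviral defence, differed between the w1118 arrays, with 929 and 2425. A further 11 of 409 probe sets with several symbols or none met the limits, and all 11 have none and are unnamed here.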
